A study of Mus musculus with 14 samples.

Results

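Macrophage and leukocyte genes were examined in chromatin immunoprecipitation sequencing of mouse liver. The set holds 10 named genes (Adgre1, Spi1, Ptprc, Fyb, Csf1r, Cd68, Clec4f, Timd4, Relb and Evi2) of 21883 protein-coding genes, each taken as its mm10 gene body with 5 kb on both sides. All 10 were found in the RefSeq gene table. They were chosen by earlier results of these same lists, among them H3K4me2-covered bases in YAP against WT, so those values are given as a description, with no test. The livers came from mice carrying an inducible YAP transgene (YAP) and from wild-type mice (WT), both of strain C57BL/6. YAP, a co-activator of transcription, is held in check by the Hippo pathway. Doxycycline, the inducer of the transgene, is given as 50 mg/L in the drinking water for 10 days, in treatment text shared by every sample, WT included. Neither the promoter of the transgene nor the sex and age of the mice are known from the labels. Antibodies were directed at H3K4me2 and H3K4me1, which are histone H3 carrying 2 methyl groups or 1 on its lysine 4, and at LSD1, a demethylase that acts on both. The values are 6 lists of enriched regions, 1 per antibody and genotype, and each list stands for 2 replicates. No spread between replicates could be computed from them, so there are no p-values, and how deeply each library was read is unknown.

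Kupffer cells are the resident macrophages of the liver, and blood monocytes can also enter the tissue and become macrophages. Macrophages depend on the transcription factor PU.1, encoded by Spi1, and on signals through the receptor encoded by Csf1r. H3K4me2 marks promoters and enhancers that are active or ready for use in a cell type, so in whole liver, where hepatocytes are the main cell type, the mark at a gene can come from more than 1 cell type. More cells that carry the mark and more mark per cell cannot be told apart in such samples. All 20 hepatocyte markers checked against the tissue label had H3K4me2-covered bases in at least 1 list.

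All 10 genes had more H3K4me2-covered bases in YAP livers than in WT livers when all listed regions were counted. Among the higher-scoring 50% of each list, 6 of the 10 had covered bases, of which 4 had more in YAP and 2, Spi1 and Cd68, had fewer. Summed over the 10 windows, H3K4me2 covered 36.5 kb in YAP livers and 9.05 kb in WT livers. Inside the gene bodies alone the sums were 27.6 kb in YAP livers and 2.39 kb in WT livers. For 6 genes (Adgre1, Ptprc, Csf1r, Clec4f, Timd4 and Evi2) no base was listed in WT, a state found at 565 of all 21883 genes (2.58%). By a threshold of 2-fold, taken after 500 bases were added to both genotypes, 7 of the 10 were higher in YAP and 0 lower, where 2.28% of all genes were higher and 1.54% lower. A gene with no base in WT passes this threshold once YAP has 500 bases. Relb, Cd68 and Timd4 did not pass it. The median log2 ratio of YAP over WT was 1.62 over the 10 genes, including those listed at 0 in WT, and -0.06 over the 14912 genes with a covered base in either list. Of those 14912 genes, 40.8% had more bases in YAP. Among the higher-scoring 50% of each list, or with 2000 bases added, only Ptprc, Fyb and Evi2 of the 10 passed, where 2.65% and 0.398% of all genes did.

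**Figure D1:**
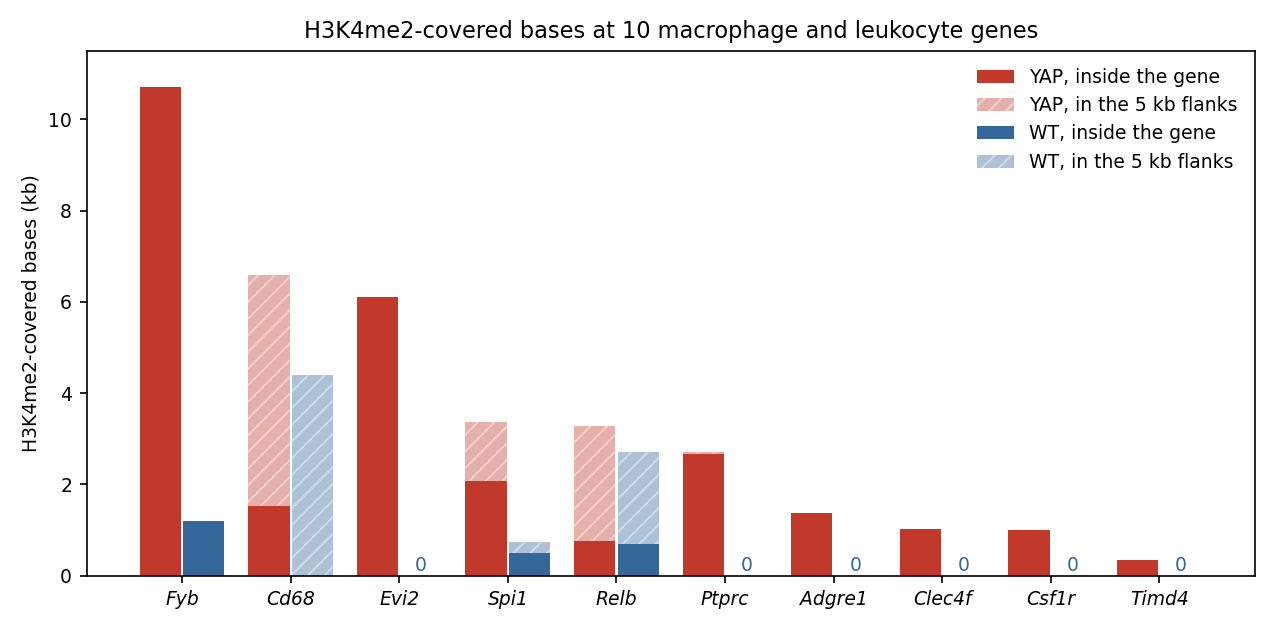
H3K4me2-covered bases (kb) at each of the 10 genes in the YAP list (left bar, red) and the WT list (right bar, blue), with the part inside the gene body solid and the part in the 5 kb flanks hatched; a 0 marks no listed base. Fyb had the most in YAP, 10.7 kb, with 1.20 kb in WT, where Cd68 had the most, 4.40 kb, and 6 genes show a 0 in WT.

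Among genes of macrophage identity, Spi1 had the most regions. In the YAP list 9 regions covered 3.38 kb of its window, and in the WT list 1 region covered 0.748 kb. The region found in both lists straddles the higher-coordinate boundary of the gene (chr2:91115293-91116011 in YAP and chr2:91115267-91116014 in WT). The other 8 were in the YAP list only. Of these, 6 lay around the lower-coordinate boundary, between chr2:91077923 and chr2:91084553, and the remaining pair began 16.8 and 18.7 kb inside the gene. Mybpc3, a heart muscle gene that lies partly in the same window, had 0.719 kb in YAP and 0.748 kb in WT, all of it the region found in both lists. In the higher-scoring 50% of each list, the log2 ratio at Spi1 was -0.034.

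Csf1r, the receptor for the growth factors CSF1 and IL-34, had 0.992 kb in YAP livers and no listed base in WT livers. Its YAP regions of 556 and 436 bp began 3.35 and 4.53 kb inside the lower-coordinate boundary of the gene (at chr18:61105572-61131139), and the nearest WT region lay 44324 bp from the gene. Hmgxb3, which lies just beyond the higher boundary, had 3.22 kb in YAP and 2.69 kb in WT in its own window. Adgre1, which encodes the mouse macrophage antigen F4/80, had 3 regions of 194, 703 and 467 bp in YAP, 1.36 kb in all, and none in WT. These lay together near the lower-coordinate boundary of this 125 kb gene, the first beginning 2.37 kb inside it, and the nearest WT region was 81314 bp from the gene.

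Clec4f and Timd4, genes of resident Kupffer cells, had few covered bases in YAP and none in WT. Clec4f, a C-type lectin that marks Kupffer cells in mice, had 357 and 663 bp in YAP, 1.02 kb together, and none in WT, where the nearest region was 69112 bp from the gene. Timd4, a receptor for phosphatidylserine on dying cells, had a single region of 339 bp in YAP and none in WT. Its authors' score of 30 was the lowest of all YAP-only regions at the 10 genes. Cd68, a lysosomal glycoprotein of macrophages, is a gene of only 1.96 kb between Mpdu1 and Eif4a1, so its window holds both neighbours' ends. H3K4me2 covered 6.58 kb of the window in YAP and 4.40 kb in WT, but 5.05 kb of this in YAP and all 4.40 kb in WT lay in the flanks. Inside the gene body, 1.54 kb was covered in YAP, by YAP-only regions of 796 and 740 bp, and no base in WT. Without the flanks Cd68 thus passed 2-fold, which made 8 of the 10 genes. With the flanks but in the higher-scoring 50% of each list, its log2 ratio was -0.11.

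**Figure D2:**
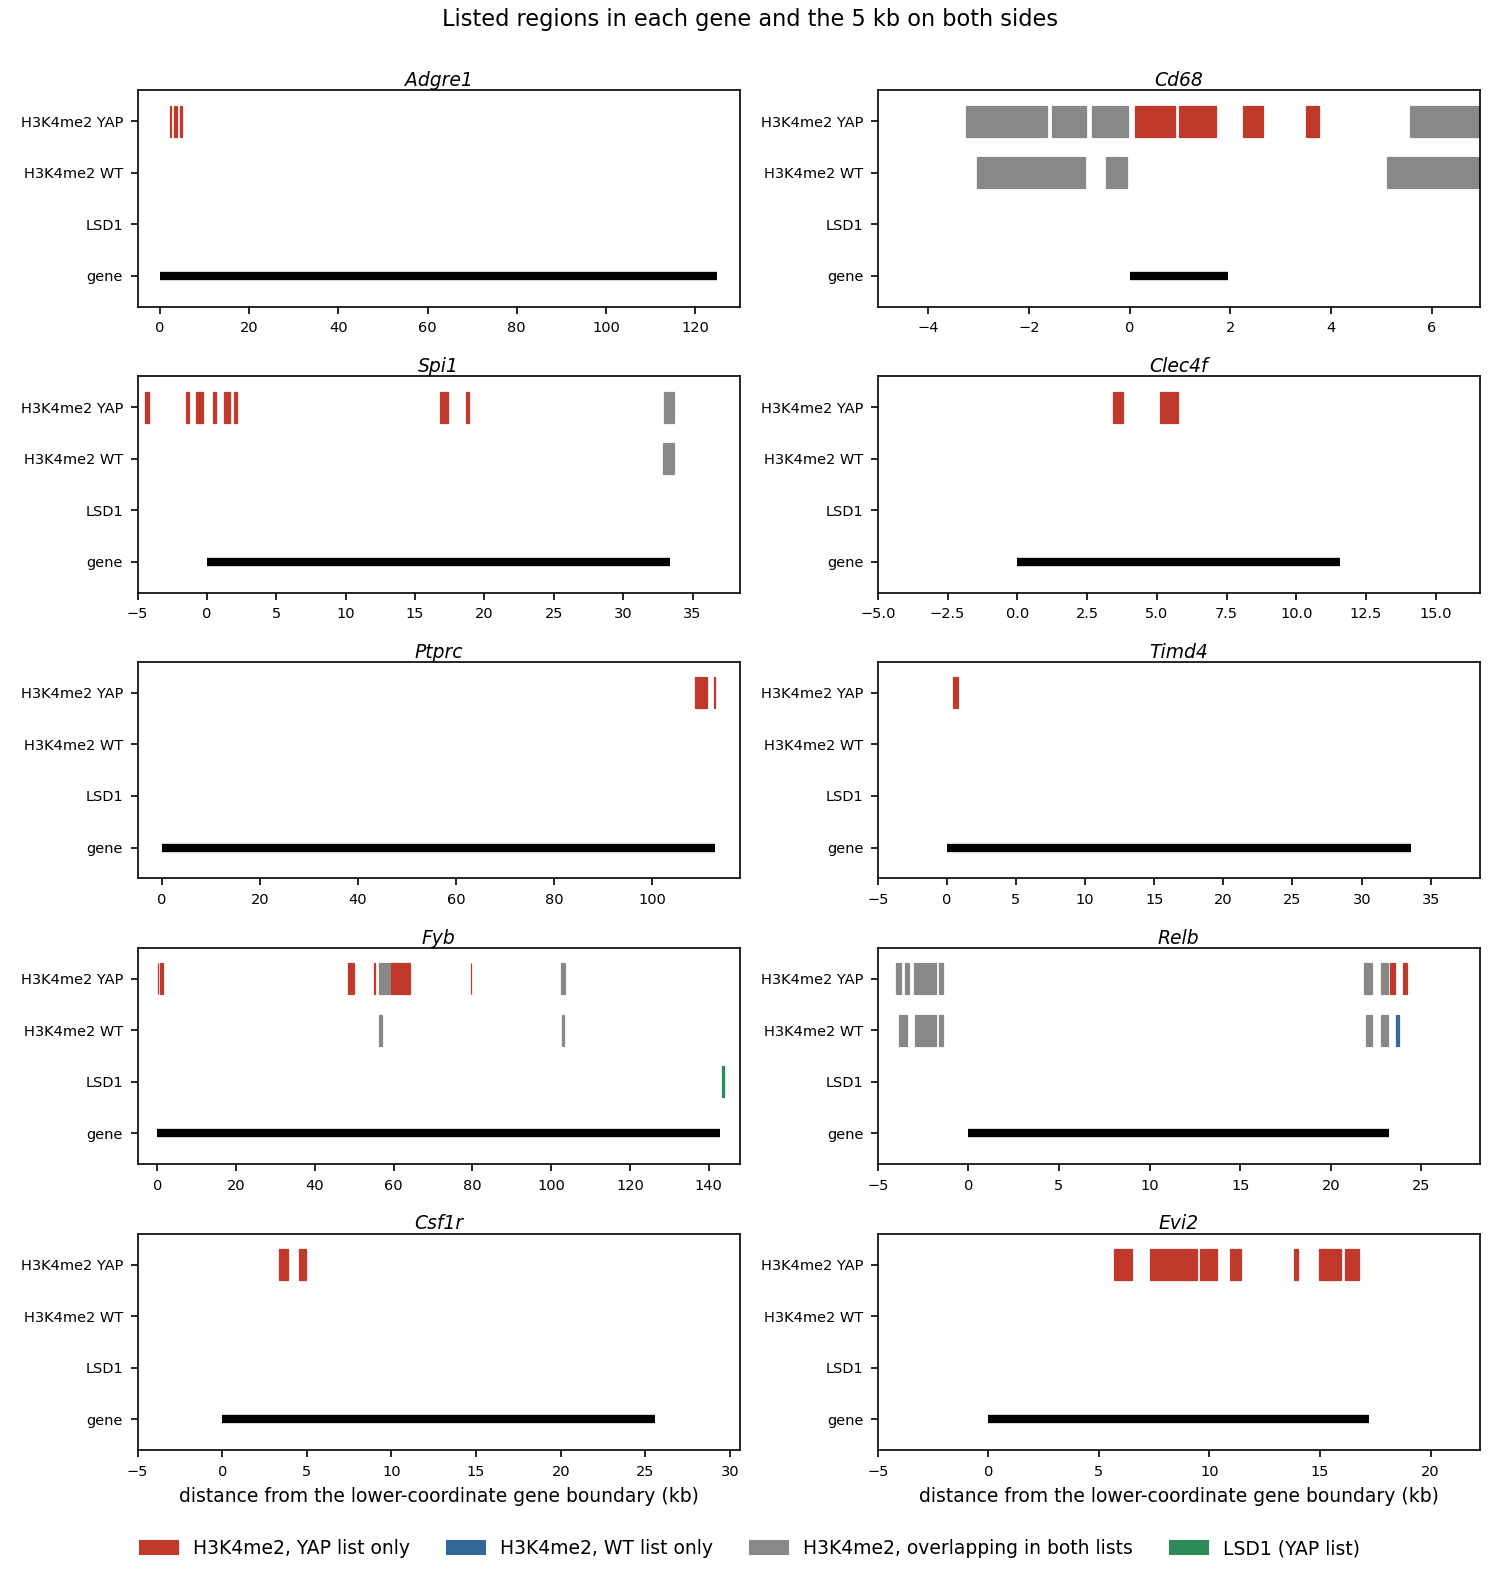
Listed regions at each gene, drawn to scale against distance from the lower-coordinate gene boundary (kb), with H3K4me2 in YAP above H3K4me2 in WT, then LSD1 and the gene body in black; each panel has its own scale. Regions of the YAP list only (red) number 42, regions overlapping in both lists are grey, and the single WT-only region (blue) is at Relb.

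Genes used by leukocytes in general held the largest differences. Fyb, an adaptor protein that links receptor signals to integrins, had 13 regions and 10.7 kb in YAP livers, against 2 regions and 1.20 kb in WT livers. A cluster of 6 YAP regions between chr15:6577784 and chr15:6586933 covered 7.26 kb around an annotated start of the gene at chr15:6579847, where the WT list had 1 region of 817 bp. Further YAP-only regions lay at the lower-coordinate boundary (198, 208 and 401 bp) and 48.4, 49.3 and 79.6 kb inside the gene. The remaining region found in both lists, 885 bp in YAP and 381 bp in WT, had the highest score of any region at the 10 genes in the YAP list, 282.

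Ptprc, which encodes the phosphatase CD45 found on all leukocytes, had 2.70 kb in YAP livers and no listed base in WT livers. A region of 2477 bp (chr1:138171602-138174078) made up most of it and was the longest YAP-only region of the set. The nearest WT region was 134374 bp from the gene. Evi2, annotated as a joint gene of Evi2a and Evi2b within the bounds of Nf1, had 7 regions and 6.10 kb in YAP and none in WT. The windows of its parts, Evi2b and Evi2a, had 4.86 and 4.38 kb in YAP and no base in WT. These windows overlap and share regions with each other and with Nf1, which had 9.62 kb in YAP and 3.86 kb in WT. When each region was given to the nearest gene only, Evi2 no longer passed 2-fold, with a log2 ratio of 0.959. There a region inside several gene bodies went to the shortest, so regions inside Evi2b or Evi2a went to these parts.

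Relb, a subunit of the NF-kappa B transcription factors used in the non-canonical branch of that pathway, stood apart from the rest. It had 8 regions and 3.27 kb in YAP and 6 regions and 2.70 kb in WT, and 0.757 kb in YAP and 0.697 kb in WT inside the gene. The YAP-only region just beyond its higher-coordinate boundary (chr7:19629507-19629777, 271 bp) had the highest authors' score of all 42 YAP-only regions, 272. The only WT-only region at the 10 genes (chr7:19629794-19629978, 185 bp, score 32) began 17 bp after it. The flanks hold the ends of Clasrp and Clptm1, which had 4.35 and 5.17 kb in YAP and 3.91 and 5.83 kb in WT.

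Of the 55 H3K4me2 regions at the 10 genes in the YAP list, 42 (76.4%) did not overlap any WT region, compared with 11154 of all 51676 YAP regions (21.6%). In the WT list, 1 of 12 regions at these genes did not overlap a YAP region, compared with 14292 of all 54219 WT regions. Of the 42 YAP-only regions, 27 were over 10 kb from any WT region and 3 within 1 kb. These distances partly follow from the choice of genes, 6 of which had no WT base in their windows. They were not computed for the YAP-only regions of the whole list. For both H3K4me2 lists the authors' score is 10 times the −log10 of the p-value without decimals, and it is compared here only within the YAP list. The 42 YAP-only regions had a median score of 49 (30 to 272), against 47 for all YAP-only regions. The 13 regions found in both lists had a median of 120, and so did such regions in the whole list. Only 3 of the 42 scored above the YAP list's median of 90. They were at Relb (272), Evi2 (128) and Fyb (98). The YAP-only regions had a median length of 451.5 bp, compared with 298 bp for all YAP-only regions. Whether weaker enrichment below the lists' unstated threshold was present in WT was not tested.

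**Figure D3:**
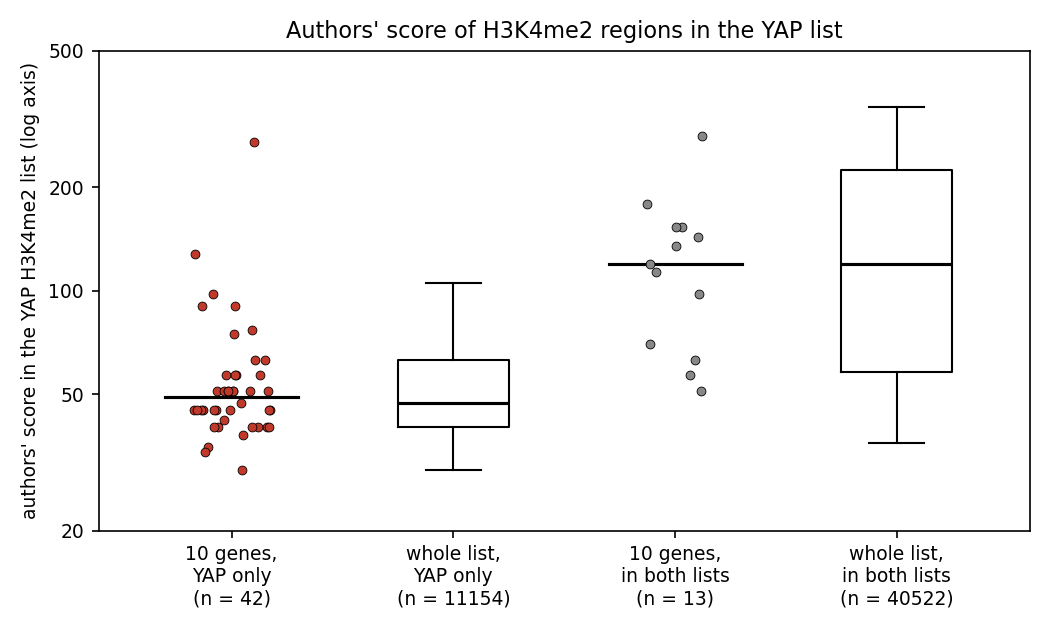
Authors' score (log axis) of H3K4me2 regions in the YAP list, for YAP-only regions at the 10 genes and in the whole list, and for regions found in both lists at the 10 genes and in the whole list. Points are single regions with a bar at the median, boxes show quartiles and median with whiskers at percentiles 5 and 95; the medians are 49, 47, 120 and 120.

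Promoter sequences place these regions relative to annotated starts. RefSeq promoters on GRCm38.p6, 250 bases before to 50 after a start, were matched for 6 of the 10 genes. Sequences are shown for the 5 genes whose promoter lay on or within 1 kb of an H3K4me2 region of the YAP list, each written in the direction of transcription. They are Fyb (chr15:6579597-6579896, plus strand), Evi2 (chr11:79530560-79530859, minus strand), Cd68 (chr11:69666121-69666420, minus strand), Ptprc (chr1:138175256-138175555, minus strand) and Timd4 (chr11:46810549-46810848, plus strand). Capitals mark GAGGAA or its reverse complement TTCCTC, the core letters of sites that PU.1 can bind.
Fyb: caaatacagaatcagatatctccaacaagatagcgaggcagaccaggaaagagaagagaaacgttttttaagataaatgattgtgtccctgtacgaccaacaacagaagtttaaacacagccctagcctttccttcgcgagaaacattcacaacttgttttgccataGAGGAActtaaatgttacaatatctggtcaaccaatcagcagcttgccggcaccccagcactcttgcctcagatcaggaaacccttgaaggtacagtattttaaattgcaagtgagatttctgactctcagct
Evi2: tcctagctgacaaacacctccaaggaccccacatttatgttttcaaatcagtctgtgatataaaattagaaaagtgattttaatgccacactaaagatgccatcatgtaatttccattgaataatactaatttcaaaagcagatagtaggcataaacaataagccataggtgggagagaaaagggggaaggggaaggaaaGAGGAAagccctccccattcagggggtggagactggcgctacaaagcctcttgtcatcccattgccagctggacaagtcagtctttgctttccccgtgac
Cd68: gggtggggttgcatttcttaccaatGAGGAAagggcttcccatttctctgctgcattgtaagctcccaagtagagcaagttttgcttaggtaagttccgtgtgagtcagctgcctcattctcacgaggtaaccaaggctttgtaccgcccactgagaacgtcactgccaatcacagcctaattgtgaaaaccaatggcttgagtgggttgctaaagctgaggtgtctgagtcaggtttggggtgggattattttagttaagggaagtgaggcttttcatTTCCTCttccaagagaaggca
Ptprc: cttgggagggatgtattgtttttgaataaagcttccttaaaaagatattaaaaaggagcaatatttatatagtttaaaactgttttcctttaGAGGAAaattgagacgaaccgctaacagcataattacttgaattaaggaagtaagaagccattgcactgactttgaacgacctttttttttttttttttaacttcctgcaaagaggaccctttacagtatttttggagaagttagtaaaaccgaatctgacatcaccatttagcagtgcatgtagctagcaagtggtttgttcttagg
Timd4: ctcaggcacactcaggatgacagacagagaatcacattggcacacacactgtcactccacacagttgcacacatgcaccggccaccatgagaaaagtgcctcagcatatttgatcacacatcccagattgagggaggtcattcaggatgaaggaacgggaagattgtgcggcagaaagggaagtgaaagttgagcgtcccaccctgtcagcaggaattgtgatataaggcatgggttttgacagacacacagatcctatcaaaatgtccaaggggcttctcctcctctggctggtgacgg

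At Fyb all 300 bases of the promoter were covered by H3K4me2 in YAP and in WT, which makes it the only one of these promoters with the mark in both lists. The other 4 had no covered base in either list, and in YAP the regions lay beside them. The promoter of Evi2b, a part of Evi2, had 32 covered bases in YAP and 0 in WT. It is neither shown above nor among the 7 entries counted below. At Cd68 the YAP regions nearest to the annotated start lay 230 bp downstream and 294 bp upstream of it, so the promoter sat in a gap between regions, while in WT the nearest lay 2002 bp downstream. The first Ptprc start had YAP regions 1227 bp downstream and 263 bp upstream, and the nearest WT region was 152560 bp away. Timd4 had a YAP region 451 bp downstream of its start and Evi2 444 bp, while the nearest upstream lay 103690 and 61125 bp away. Clec4f differed, with 5810 bp between its start and the nearest YAP region downstream. The letters GAGGAA or TTCCTC were in 4 of the 7 promoter entries of these genes (Ptprc has more than 1 entry) and in 28.3% of all 32851 promoter entries. The AP-1 letters TGANTCA were in 1 of the 7, at Cd68, and in 7.81% of all. The TEAD letters CATTCC (reverse GGAATG) and the RUNX letters TGTGGT (reverse ACCACA) were in 0 of the 7, against 14.7% and 16.8% of all entries. Both strands were searched, overlaps between motifs were not removed, and a match of letters is not a bound site.

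LSD1 was listed at 1 of the 10 genes. In the YAP list a region of 400 bp lay 552 bp beyond the higher-coordinate boundary of Fyb (chr15:6666160-6666559), and the nearest WT region was 502356 bp from the gene. This count of 1 in 10 is close to the 8.08% of all protein-coding genes with LSD1 in YAP only, and 0 of the 10 had it in WT only or in both, where 2.85% and 3.05% of all genes did. The Fyb region had an authors' score of 642, below the YAP LSD1 list's median of 772 after merging, and the nearest H3K4me2 region was 39.0 kb away in YAP and 39.8 kb in WT. With no flank, with the higher-scoring 50% of regions or with LSD1 lists of equal size, no gene of the set had LSD1. Around the other genes the nearest LSD1 region was 11727 bp from Spi1 in YAP, against 121482 bp in WT. From Cd68 it was 49778 bp in YAP and 137650 bp in WT. At Adgre1 (124991 bp in YAP, 127911 bp in WT) and Clec4f (138701 bp in YAP, 138769 bp in WT) the distances were nearly equal. Over all 10 genes the median was 131.8 kb in YAP and 321.1 kb in WT. The YAP LSD1 list holds 2949 merged regions and the WT list 1500, and the part of list size in these distances was not tested.

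H3K4me1 was listed at none of the 10 genes in YAP or in WT, where 14.5% of all protein-coding genes had a region in at least 1 of these lists, 1.98% being at least 2-fold higher in YAP and 1.24% lower. Distances from the gene bodies to the nearest H3K4me1 region ran from 10.2 to 920.3 kb in YAP and from 45.2 to 1230 kb in WT. Spi1 was the closest in YAP, at 10199 bp, and had 116784 bp in WT. Fyb was the closest in WT, at 45237 bp, and had 47911 bp in YAP. The H3K4me1 lists are short, with 6274 regions in YAP and 5905 in WT, so a gene without a listed region may still carry the mark.

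**Figure D4:**
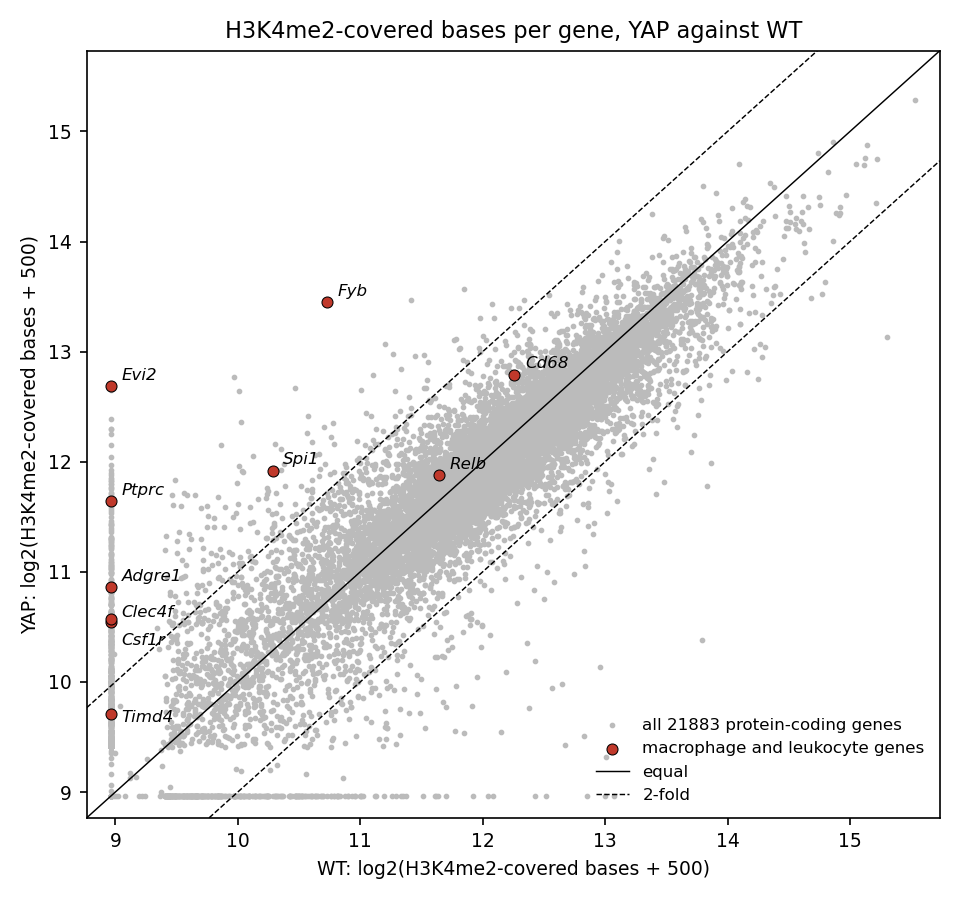
H3K4me2-covered bases of every protein-coding gene (grey) in YAP (vertical axis) against WT (horizontal axis), both as log2 of bases plus 500, with the 10 genes in red, a solid line at equality and dashed lines at 2-fold. Of the 10, 6 stand at 0 bases in WT on the left edge, Fyb and Spi1 lie above the upper dashed line, and Cd68 and Relb lie between the lines.

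The same measure over wider gene lists, which were also drawn up with earlier results of these data known, is given without the 10 genes. Over all protein-coding genes, 2.28% were at least 2-fold higher in YAP and 1.54% lower. Of 23 further genes of leukocyte signalling and cytoskeleton, 11 were at least 2-fold higher in YAP and 0 lower, 9 had bases in YAP only, and the median log2 ratio over the 22 with bases was 1.03. Ikzf1, a transcription factor of blood cells, had 5.91 kb in YAP and 0.531 kb in WT. Cd53, a tetraspanin of leukocytes, had 2.98 kb in YAP and the kinase gene Syk 2.95 kb, and neither had a base in WT. Lcp2, an adaptor that works with the product of Fyb, had 3.16 kb in YAP and 0.216 kb in WT. Over this list 70.2 kb was covered in YAP and 39.8 kb in WT. Of 26 further macrophage and myeloid markers, 6 were higher and 0 lower, with a median of 0.45 over 19 genes with bases and sums of 75.0 kb in YAP and 50.0 kb in WT. The pore-forming macrophage gene Mpeg1 had 6.50 kb in YAP and 0.50 kb in WT, Tyrobp, a signalling adaptor, 5.25 kb in YAP and 2.23 kb in WT, Aif1, which encodes IBA1, 2.83 kb in YAP and 0.304 kb in WT, and Lgals3, which encodes galectin-3, 1.40 kb in YAP and none in WT. With the lower-scoring regions of each genotype left out (50%), 3 genes of each of these gene lists passed 2-fold higher, where 2.65% of all genes did.

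Not all leukocyte markers were marked, and neither were all genes, as 14912 of all 21883 protein-coding genes had a base in either list. Such a base was found at 19 of the 26 further myeloid markers and 8 of 11 further Kupffer cell markers. It was found at 8 of 20 lymphocyte markers and 4 of 14 neutrophil markers. Of the 26 myeloid markers, 7 had no base in either list, namely Lyz2, Itgam, C1qa, C1qc, Cx3cr1, Ccr2 and Trem2. Of 11 further Kupffer cell markers, 1 was higher (Cd5l, 1.37 kb in YAP and none in WT), 1 was lower (C6, also a complement gene of hepatocytes, 0.969 kb in YAP and 3.57 kb in WT), and Vsig4, Marco and Cd163 had no base in either list. Their sums were 45.1 kb in YAP and 39.5 kb in WT. Of 20 lymphocyte markers, 0 passed 2-fold in either direction and 12, including Cd3e and Ms4a1, had no base in either list, with sums of 30.7 kb in YAP and 29.9 kb in WT. Of 14 neutrophil markers, 0 passed and 10, including S100a8, S100a9 and Ly6g, had no base in either list. NF-kappa B pathway genes other than Relb gave 0 of 20 in either direction, with a median of 0.05. The counts of 0 in these lists are close to the shares of all protein-coding genes, 2.28% higher and 1.54% lower. Of 15 genes for CSF1 family ligands, chemokines and myeloid regulators, 2 were higher (Csf2rb, a cytokine receptor subunit, with 1.52 kb in YAP, and Cx3cl1 with 0.519 kb, both with none in WT) and 1 was lower (Il34, none in YAP and 0.506 kb in WT).

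**Figure D5:**
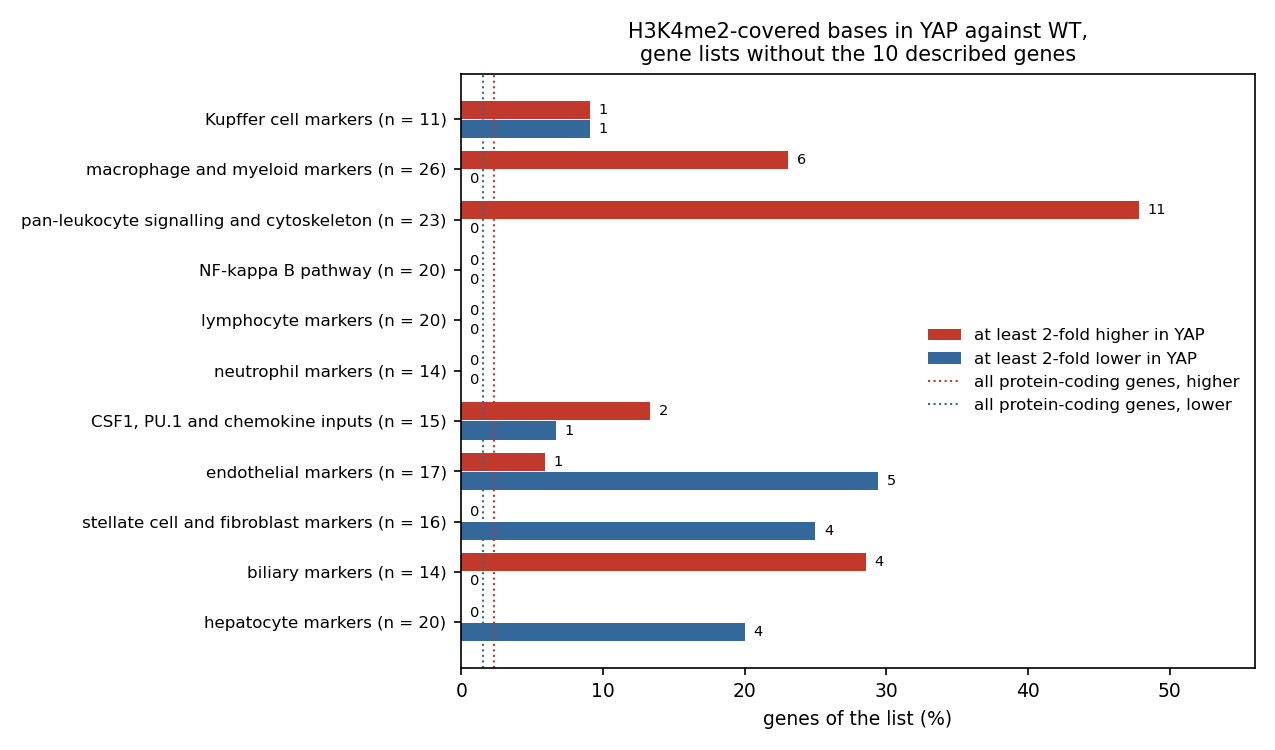
Share of each gene list (%) with H3K4me2-covered bases at least 2-fold higher (red) or lower (blue) in YAP than in WT, without the 10 described genes, with the number of genes at each bar; dotted lines show all protein-coding genes, 2.28% higher and 1.54% lower. The list of leukocyte signalling and cytoskeleton has 11 of 23 genes higher and 0 lower.

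Markers of other liver cells also differed between the lists. Hepatocyte markers had 0 of 20 higher and 4 lower (sums 121.4 kb in YAP and 189.0 kb in WT). Endothelial markers had 1 of 17 higher and 5 lower (27.1 kb in YAP and 48.6 kb in WT). Stellate cell and fibroblast markers had 0 of 16 higher and 4 lower (11.0 kb in YAP and 21.2 kb in WT). Biliary markers had 4 of 14 higher and 0 lower (41.7 kb in YAP and 33.0 kb in WT). Of all protein-coding genes, 2.28% were higher and 1.54% lower. Endothelial markers with bases were evenly split, 8 with more in YAP and 8 with fewer, at a median log2 ratio of -0.15. More bases in YAP were found at 3 hepatocyte, 2 stellate cell and fibroblast and 6 biliary markers, and fewer at 17, 8 and 4. Their medians were -0.68, -0.40 and 0.59. The 4 higher biliary markers were Spp1 (3.75 kb in YAP, 0.619 kb in WT), Anxa2 (4.09 kb in YAP, 1.72 kb in WT), Prom1 (3.97 kb in YAP, 1.67 kb in WT) and Cldn7 (1.655 kb in YAP, 0.498 kb in WT). No base in either list was found at 4 of the 14 biliary markers, among them the keratins Krt7 and Krt19. The same held for 6 of the 16 stellate cell and fibroblast markers, among them Des and Pdgfrb. The part of cell mix in the values at the 10 genes was not tested.

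Genes were ranked by how near their 6 values (log2 of covered bases plus 500, 1 per list) lay to the median profile of the 10. Outside the set, with genes of Gm or Rik symbols left out, the nearest were Cd53, Syk and Smoc2, a secreted matricellular protein. Cd53 had 2.98 kb of H3K4me2 in YAP, Syk 2.95 kb and Smoc2 2.86 kb, with no base in the WT list and no H3K4me1 or LSD1 in either genotype. Euclidean distances were 0.000364, 0.0125 and 0.0498 over the 6 lists.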

How the data were processed

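Chromatin was digested with micrococcal nuclease and immunoprecipitated with a commercial kit, per the labels' protocols, in 12 antibody libraries, with 2 input libraries. The nuclease prefers linker DNA, so region bounds can follow nucleosome positions. The submitters' processing notes name the mm10 build and, as tools, Trimmomatic 0.39, BWA, SAMtools 1.7, deepTools 3.3.0, Picard 1.126 and bedtools 2.26.0. Which peak caller and threshold were used, and whether inputs entered, is not given in the sources used here. Each deposited list serves both replicates, per the labels, in a way they do not state. In the H3K4me2 and H3K4me1 lists the score deposited by the authors equals 10 times the deposited −log10 p-value without decimals. The LSD1 score, and the signal value deposited by the authors, are of unstated definition and were used only to rank regions within a list, the signal to break ties.

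Regions that overlapped or touched within a list were merged (LSD1 then had 2949 regions in YAP, of 3353 listed, and 1500 in WT, of 1718; no other list changed). All regions lay on chromosomes 1 to 19, X and Y. Gene bounds came from a RefSeq table of GRCm38.p6, whose coordinates are those of mm10. An overlap between lists needed 1 bp. Covered bases were counted in each gene body and its 5 kb flanks, 500 bases were added, and the log2 ratio of YAP to WT was taken. With 1 list per group this is a description without a test. All members and gene lists were chosen with earlier results of these data known. Named genes outside the 10 followed 1 rule. It took up to 4 genes per list past 2-fold in each direction by difference in bases, and any list gene with an LSD1 region. It also took genes in the same windows, and the 3 genes with the nearest profile among those without Gm or Rik symbols. For endothelial, stellate, biliary and hepatocyte markers only counts, sums, medians, the 4 higher biliary markers and 4 genes without bases are given. The 4 without bases, like other genes named as having no base, were chosen after their values were seen. Tools were Python 3.11.15 with pandas 2.3.3, numpy 2.4.6 and, for figures, matplotlib 3.10.9. Covered bases were tested on simulated regions against bedtools 2.31.1 and were equal in 2000 of 2000 windows.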

Additional observations from a re-analysis of the deposited data

How the results depend on the processing

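No paired analysis was possible because each list combines both replicates of a genotype. For the same reason no replicate could be left out. Of the 10 genes, 7 passed 2-fold higher in the main setting, 3 with 2000 bases added and 3 among the higher-scoring 50% of each list, and the count stayed within 1.5 times of 7 under the 6 other alternatives, with 0 lower under all 8. Of all protein-coding genes, 2.28% passed 2-fold higher in the main setting and 0.398% with 2000 bases added. This share was 2.65% among the higher-scoring 50% and from 2.23% to 4.42% under the 6 other alternatives. The counts of 11 leukocyte signalling genes and 6 myeloid genes had alternatives added after the data were examined. They became 4 and 2 with 2000 bases added and 3 and 3 among the higher-scoring 50%. In that stricter setting only 6 of the 10 genes had covered bases, and the log2 ratio turned to -0.034 at Spi1 and to -0.11 at Cd68; these are the only reversals among the 80 ratios of single genes. The number of YAP-only H3K4me2 regions went to 6 there, against 42, of which 3 scored above the YAP list's median. Overlap was taken anew between the shortened lists, so the 6 are not all among the 42. At Fyb the YAP region at chr15:6579066-6582035 (score 113) overlaps a WT region with a score of 71, below the WT list's median of 86. WT-only regions numbered 4 with a reciprocal overlap of 50%, and 0 within 1 kb, with lists of equal size and without the flanks, against 1. Genes with LSD1 in YAP only numbered 0 without the flanks, 0 among the higher-scoring 50%, 0 with lists of equal size and 2 with 20 kb flanks, against 1, and with LSD1 in WT only 0 in each of these settings. H3K4me1 gave 0 genes past 2-fold in either direction under all 8 alternatives. Region lists carry no read depth, so how far depth differs between the lists, and with it the number of low-scoring regions, is unknown.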

Other observations

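LSD1 was listed in YAP or WT at 12 of the 129 further genes of the leukocyte, NF-kappa B and chemokine lists (9.3%), a lower share than over all protein-coding genes (3059 of 21883, 14.0%). In YAP only, it lay at Folr2, a folate receptor of macrophages, at Maf, a transcription factor of macrophages, at Bcl3 and Tnfaip3, which restrain or modify NF-kappa B, and at Cxcl16, a chemokine. In WT only, it lay at Cebpb and Cebpa, transcription factors shared by myeloid cells and hepatocytes, at Mertk, a receptor for dying cells, at Lcp1, an actin-bundling protein of leukocytes, at Chuk, a kinase of the NF-kappa B pathway, and at Tnfrsf1b, a receptor for TNF. Bach2, a transcription factor of lymphocytes, had it in both. None of these 12 genes passed 2-fold in H3K4me2-covered bases, and their log2 ratios ran from -0.10 at Cebpb to 0.47 at Tnfaip3. Of all protein-coding genes, 2.28% were higher and 1.54% lower, so a count of 0 in 12 is close to these shares. All 12 had bases in both lists, in WT from 4.00 kb at Tnfrsf1b to 17.8 kb at Bach2.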
